A study of Raphidocelis subcapitata with 270 samples.

Results

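The 18 DMSO libraries of a study of the green alga Raphidocelis subcapitata were compared with one another, as 18 of its 270 libraries. The rule that picked them used column names alone, taking the columns labelled CON in 6 control sets, each set holding replicates A, B and C. Each set is shared by the tables of 2 chemicals, named by number in that order, and was taken once. The Chem1_Chem2 set is the control of 1(2H)-Phthalazinone and Gabapentin, and the Chem3_Chem4 set that of Metribuzin-DA (Chem3) and 2-tert-butyl-4-methoxyphenol (Chem4). The Chem5_Chem6 set belongs to Hydrochlorothiazide and 4-chlorophenyl methyl sulfone, and the Chem7_Chem8 set to Cetirizine Hydrochloride and Fipronil carboxamide. The Chem9_Chem10 set belongs to Fexofenadine and cis-nonachlordane, and the Chem11_Chem12 set to Metolachlor OA and 3,4-Dichlorophenyl isocyanate. The remaining libraries were exposed to these 12 chemicals at 7 levels named D1 to D7, with 3 libraries at each level. All libraries had 24 h of exposure in multi-well plates at 24 °C under constant light of 4300 lux, followed by 3′ mRNA sequencing. The labels give no strain, no DMSO concentration and no concentrations for the level names.

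Raphidocelis subcapitata is a single-celled freshwater green alga that grows photosynthetically and is a standard species in tests of chemical toxicity to aquatic plants. Dimethyl sulfoxide (DMSO) is a solvent used to bring poorly soluble chemicals into water, and cultures given DMSO alone are the baseline against which the effect of a chemical is read. The RNA of an algal culture also varies with growth stage, cell density, light and nutrients, so baselines prepared separately can differ. The comparison of the 6 sets measures how far these baselines lay from one another relative to the spread within a set.

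The labels do not say which culture, plate, day or sequencing run a set came from. A set therefore cannot be told apart from any of these. Nor is it stated that replicates A, B and C were separate cultures, and a p-value here reflects only library-to-library spread that may be technical. The files identify genes by Rsub numbers with no names or roles, so the labelled source, "whole body", could not be checked against marker genes. Values are relative abundances in bulk RNA, in which a change in the mix of cells and a change in RNA per cell cannot be told apart.

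The DMSO libraries held 731426 to 1674099 counts, with a median of 1047635, over 13429 listed genes. Of these genes, 9330 had a count in all 18 libraries, 6684 had at least 10 counts in all 18, and 289 had no count in any. With every library thinned to 731426 counts, the number of genes with a count was lowest in the Chem5_Chem6 set, at 10424, 10448 and 10470. It was 10502, 10512 and 10514 in the Chem7_Chem8 set and 10648, 10684 and 10748 in the Chem3_Chem4 set. The Chem1_Chem2 libraries had 10863, 10798 and 10791 genes, the Chem9_Chem10 libraries 10873, 10949 and 10811, and the Chem11_Chem12 libraries 10883, 10871 and 10947. The Chem9_Chem10 values overlapped those of both other sets, while the Chem1_Chem2 values lay below those of Chem11_Chem12. No gene was without counts in all 3 libraries of a set and at 10 or more counts in every other DMSO library, nor the other way round. A looser rule asked for no count in a set and a mean of at least 3 in the other DMSO libraries. It gave 14 genes for Chem5_Chem6, 9 for Chem7_Chem8, 2 each for Chem3_Chem4 and Chem11_Chem12, 1 for Chem1_Chem2 and 0 for Chem9_Chem10. The other way round it gave 0 in each set. Such genes rest on few counts.

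The 10 most abundant genes of a library took a smaller share of the counts in 2 of the sets. This share was 5.63%, 5.12% and 5.04% in the Chem9_Chem10 libraries and 5.08%, 4.66% and 5.01% in the Chem11_Chem12 libraries. It was 5.96% to 6.55% in the 12 libraries of the other sets, with no overlap. The 95% Wilson intervals were at most 0.102 percentage points wide and cover counting error only.

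The most abundant transcript over the 18 libraries was Rsub_02614, at 6663 to 13670 CPM, a unit of relative abundance in which counts are scaled to library size by the trimmed mean of M-values. It did not pass the test over the 6 sets (adjusted p = 0.11, edgeR quasi-likelihood test with Benjamini-Hochberg adjustment). In each set its highest value was in replicate A, with 11640, 13180, 13670, 11740, 11040 and 9197 CPM across the sets in the order given above. Without replicate A of the Chem1_Chem2 set it passed over the sets, at an edgeR adjusted p of 0.0025, and without that of the Chem7_Chem8 set at 0.0361. It also passed with no filter on low counts, at an edgeR adjusted p of 0.000699, and without the Chem1_Chem2 set, at 0.0363. With the replicate letter as a block it passed at an edgeR adjusted p of 0.00132. It differed between replicate letters as well (edgeR adjusted p = 0.000157). The next most abundant was Rsub_09559, at 6172 to 11130 CPM, which passed over the sets (edgeR adjusted p = 1.39e-07). Its 6 lowest values were those of the Chem9_Chem10 libraries, at 6924, 6798 and 6484 CPM, and of the Chem11_Chem12 libraries, at 6722, 6172 and 6587 CPM. The lowest of the other 12 was 7406 CPM.

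Baselines of the 6 sets differed at many of the tested genes. Of 9242 genes tested, 3259 (35.3%) differed among the sets at an adjusted p under 0.05 in the edgeR quasi-likelihood test with Benjamini-Hochberg adjustment. The median ratio of the highest to the lowest set was 1.97-fold among these genes and 1.65-fold among all genes tested. The ratio exceeded 2-fold in 1550 of the genes called and 4-fold in 201. Calls were more frequent among abundant genes: over 4 equal bins of mean count, 17.9% passed in the lowest, 25.6% and 36.1% in the middle bins and 61.5% in the highest. The median gene of these bins had a mean of 13.6, 31.0, 63.5 and 193 counts per library, so the depth of a gene moved with its chance of being called. The median ratio of the highest to the lowest set fell over the same bins, at 1.929, 1.664, 1.555 and 1.521-fold. Such a ratio lies above 1 through library spread alone, even with no difference between sets.

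The gene with the largest F statistic over the sets was Rsub_00393. It was at 1340, 1346 and 1496 CPM in the Chem1_Chem2 libraries, against 97.7 to 447 CPM in the other 15. The Chem9_Chem10 libraries had 147, 138 and 125 CPM and the Chem11_Chem12 libraries 103, 97.7 and 134 CPM, below every library of the other sets (edgeR adjusted p = 3.16e-19). Rsub_12849, the next by F, ran the other way over the same sets. It was at 579, 711 and 580 CPM in the Chem9_Chem10 libraries and at 657, 667 and 663 CPM in the Chem11_Chem12 libraries. The Chem1_Chem2 libraries had only 43.0, 42.3 and 29.2 CPM, and the remaining 9 lay between 112 and 223 CPM (edgeR adjusted p = 1.39e-18). Neither gene had overlapping values between the Chem1_Chem2 set, the 3 sets in the middle, and the Chem9_Chem10 and Chem11_Chem12 sets.

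Whole profiles put the Chem9_Chem10 and Chem11_Chem12 libraries together and apart from the other 12. In a principal component analysis of log2 CPM over the tested genes, component 1 held 26.8% of the variance. The Chem9_Chem10 libraries scored 29.4, 31.9 and 27.9 on it and the Chem11_Chem12 libraries 29.3, 28.7 and 33.7. The other 12 libraries scored between -26.4 and -3.09. Component 2, with 11.4% of the variance, set the Chem1_Chem2 libraries at 31.1, 21.5 and 21.8, above the 15 others, which lay between -20.1 and 8.96. Of the total sum of squares of log2 CPM over these genes, 53.7% lay between sets (5 degrees of freedom), 10.5% between replicate letters (2) and 35.8% in the remainder (10). The medians of the per-gene shares were 49.6%, 8.11% and 37.3%.

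**Figure D1:**
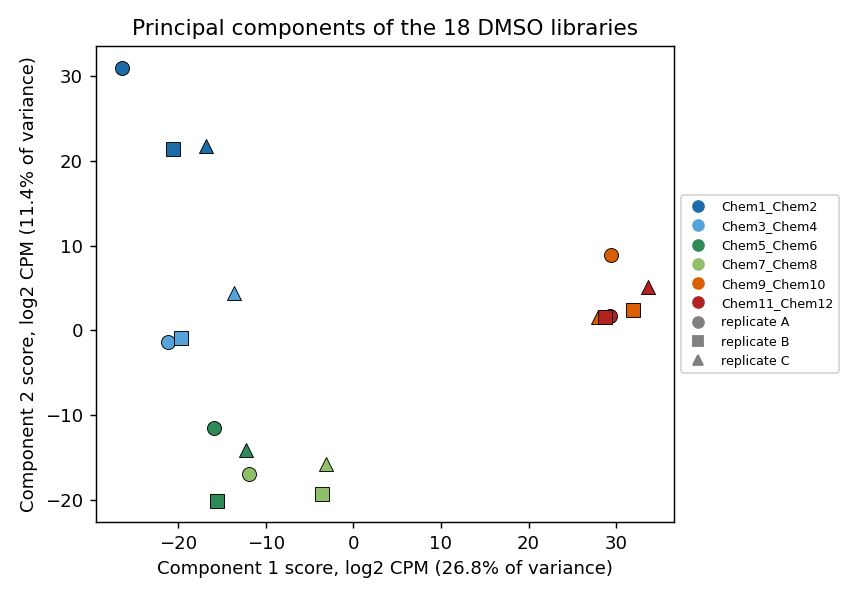
Scores of the 18 DMSO libraries on components 1 and 2 of log2 CPM, one point per library, with colour for the control set and marker shape for the replicate letter. The 6 libraries of Chem9_Chem10 and Chem11_Chem12 lie at the right, at 27.9 or more on component 1, and the Chem1_Chem2 libraries lie at the top left.

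The distance between 2 libraries, taken as the root mean square difference of log2 CPM over the tested genes, gave the same grouping. It was 0.436 to 0.633 between libraries of one set (median 0.524, 18 pairs) and 0.440 to 0.811 between libraries of different sets (median 0.662, 135 pairs). The 9 pairs that joined a Chem11_Chem12 to a Chem9_Chem10 library had 0.440 to 0.552, with a median of 0.460, below the median within sets. The 126 other pairs between sets had 0.507 to 0.811. For 11 of the 18 libraries the nearest other library belonged to the same set. These distances contain counting noise, which is larger in shallow libraries.

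**Figure D2:**
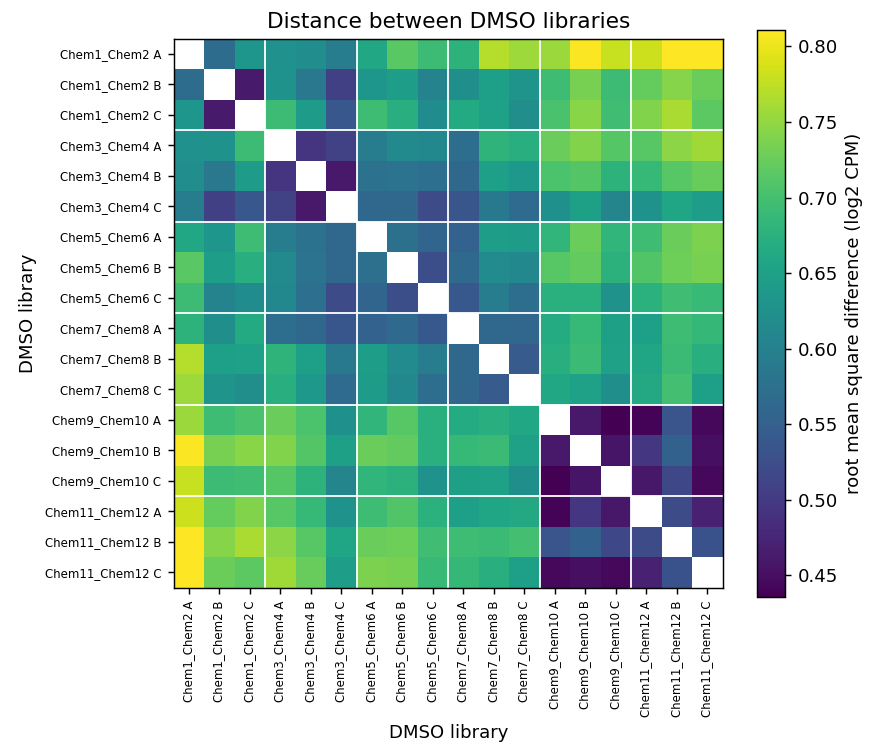
Root mean square difference of log2 CPM for every pair of the 18 DMSO libraries, ordered by set and letter, with darker cells for smaller distances. The block joining Chem9_Chem10 and Chem11_Chem12 holds values of 0.440 to 0.552, in the range seen within sets.

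Sets also differed in how alike their own 3 libraries were. The biological coefficient of variation, the spread between libraries beyond counting noise as edgeR estimates it, was 18.8% in the Chem1_Chem2 set, 15.9% in Chem7_Chem8 and 14.1% in Chem5_Chem6. It was 13.6% in Chem9_Chem10, 12.95% in Chem11_Chem12 and 12.8% in Chem3_Chem4. The largest distance within any set, 0.633, was between replicates A and C of Chem1_Chem2. Each value rests on 3 libraries, and the difference between sets in this spread was not tested.

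Set against one another in pairs, the sets differed to very unequal extents. Between Chem11_Chem12 and Chem9_Chem10, 0 of 9242 genes (0%) passed in the edgeR quasi-likelihood test, and DESeq2 called 1. In edgeR 416 of the 9242 were at an unadjusted p under 0.05. With no difference at all, a share of about 0.05 would lie under that threshold, and the 416 do not exceed it. A count of 0 does not show that these baselines were alike. The largest count was 1974 genes (21.4%) between Chem9_Chem10 and Chem1_Chem2, and the median of the 15 pairs was 1249.

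Chem9_Chem10 and Chem11_Chem12 were both far from the other 4 sets. Chem9_Chem10 differed from Chem3_Chem4 at 1918 genes (20.8%), from Chem5_Chem6 at 1644 (17.8%) and from Chem7_Chem8 at 1438 (15.6%). Chem11_Chem12 differed from Chem1_Chem2 at 1939 genes (21%), from Chem3_Chem4 at 1761 (19.1%), from Chem5_Chem6 at 1612 (17.4%) and from Chem7_Chem8 at 1249 (13.5%). Without Chem9_Chem10 replicates A, B and C the 1438 became 927, 1071 and 1178. Without Chem11_Chem12 replicates A, B and C the 1761 became 1300, 1458 and 1126. Each such loss also leaves fewer libraries to test with.

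The other 4 sets were closer to one another, and Chem1_Chem2 was the farthest of them. Against Chem1_Chem2, Chem7_Chem8 had 879 genes (9.51%), Chem5_Chem6 655 (7.09%) and Chem3_Chem4 456 (4.93%). Chem7_Chem8 differed from Chem3_Chem4 at 510 genes (5.52%) and from Chem5_Chem6 at 64 (0.692%), and Chem5_Chem6 from Chem3_Chem4 at 124 (1.34%).

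All 6 of these counts moved when single libraries were left out, and smaller changes are not listed. The 879 became 562 without Chem7_Chem8 replicate B, and the 655 became 386 without Chem5_Chem6 replicate B. The 456 became 289 and 261 without Chem1_Chem2 replicates B and C, and 242 and 243 without Chem3_Chem4 replicates A and B. The 510 became 260 and 235 without Chem3_Chem4 replicates A and B, and 207 and 214 without Chem7_Chem8 replicates B and C. The last 2 moved in both directions. The 64 became 138 without Chem1_Chem2 replicate A and 142 without Chem7_Chem8 replicate A, and 17, 18 and 14 without Chem5_Chem6 replicate B, Chem7_Chem8 replicate B and Chem7_Chem8 replicate C. The 124 became 222 without Chem1_Chem2 replicate A, 53 and 55 without Chem3_Chem4 replicates A and B, and 48 and 49 without Chem5_Chem6 replicates B and C.

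Each set was then compared with the mean of the other 5, with the named set on top of the fold change. Chem9_Chem10 gave 1673 genes (18.1% of 9242), of which 837 were higher and 836 lower. Chem11_Chem12 gave 1511 (16.3%), with 749 higher and 762 lower, and Chem1_Chem2 gave 1336 (14.5%), with 760 higher and 576 lower. Chem3_Chem4 gave 851 (9.21%), with 458 higher and 393 lower. Chem7_Chem8 gave 594 (6.43%), with 365 higher and 229 lower, and Chem5_Chem6 gave 497 (5.38%), with 335 higher and 162 lower. These 6 contrasts share libraries and are not independent of one another. In all, 5846 genes were called in none of them and 9 in all 6.

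Fold changes were larger on the side of lower genes in 2 of the sets. In Chem5_Chem6, 49 of the 162 lower genes and 8 of the 335 higher genes changed by more than 2-fold. In Chem7_Chem8 these were 63 of 229 lower and 18 of 365 higher genes. The lowest counts came where the set itself lost a library, which also leaves fewer libraries to test with. Smaller changes are not listed. Without its own replicates A, B and C the Chem5_Chem6 count was 243, 122 and 225, and the Chem11_Chem12 count 907, 993 and 836. Without its replicates A and B the Chem3_Chem4 count was 303 and 283 and the Chem9_Chem10 count 1001 and 1063. The Chem7_Chem8 count was 156 and 198 without its replicates B and C, and the Chem1_Chem2 count 826 without its replicate B.

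The genes described next are, in each contrast, the 2 with the largest positive and the 2 with the largest negative log2 fold change among called genes averaging at least 10 counts. All 3 libraries of the set also had to lie beyond all 15 others. Their separation is therefore part of how they were chosen. Of genes that met these conditions there were 191 higher and 152 lower in Chem1_Chem2, against 54 and 46 in Chem3_Chem4 and 44 and 25 in Chem5_Chem6. There were 54 and 56 in Chem7_Chem8, 54 and 61 in Chem9_Chem10, and 67 and 54 in Chem11_Chem12.

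In the Chem1_Chem2 set, Rsub_11015 was at 92.9, 80.3 and 88.3 CPM, against 0.863 to 29.1 CPM in the other 15 libraries (median 11.1). Its log2 fold change of 3.21 ± 0.231 (standard error) was the largest rise named for any set (edgeR adjusted p = 1.04e-12). Rsub_03142 was at 79.0, 35.3 and 40.5 CPM, against 1.01 to 17.0 CPM in the others. Replicate A stood above B and C, and the log2 fold change was 3.00 ± 0.282. Rsub_02243 was at 3.48, 1.76 and 2.43 CPM, against 6.54 to 44.3 CPM in the others, a log2 fold change of -3.16 ± 0.380. In the other sets it was lowest in Chem3_Chem4, at 6.54, 9.86 and 10.8 CPM. Rsub_01016 was at 4.64, 0.882 and 0 CPM, against 5.06 to 33.3 CPM in the others. Its log2 fold change of -2.98 ± 0.554 rests on few counts.

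In the Chem3_Chem4 set, Rsub_09497 was at 242, 307 and 400 CPM, against 41.5 to 194 CPM in the other 15 libraries. Its log2 fold change was 1.81 ± 0.173 (edgeR adjusted p = 8.47e-09), and it also differed between replicate letters (edgeR adjusted p = 0.00202). Rsub_04371 was at 539, 542 and 565 CPM, against 65.4 to 369 CPM, a log2 fold change of 1.78 ± 0.114. The set nearest to it was Chem1_Chem2, at 369, 272 and 335 CPM. Rsub_03213 had 3 counts in the whole set, at 1.09, 0 and 1.54 CPM, against 2.32 to 39.3 CPM in the others. The pooled rate in the other sets was 20.7 times that in Chem3_Chem4, and its exact 95% Poisson limits, for counting error alone, were 7.03 and 101. Rsub_02621 was at 3.27, 5.75 and 9.25 CPM, against 12.8 to 75.3 CPM, a log2 fold change of -2.56 ± 0.346.

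In the Chem5_Chem6 set the rises were small. Rsub_09369 was at 356, 383 and 410 CPM, against 133 to 290 CPM in the other 15 libraries, a log2 fold change of 0.89 ± 0.114 (edgeR adjusted p = 9.28e-06). Rsub_08110 was at 38.2, 35.6 and 35.6 CPM, against 7.01 to 32.5 CPM, a log2 fold change of 0.89 ± 0.235 (edgeR adjusted p = 0.0201). That call was lost without any 1 of the 3 Chem5_Chem6 libraries, at edgeR adjusted p-values of 0.0782 to 0.092. Rsub_12799 was at 4.37, 5.56 and 8.44 CPM, against 13.8 to 27.6 CPM, a log2 fold change of -1.82 ± 0.327 (edgeR adjusted p = 0.000697). Rsub_00801 was at 4.37, 3.34 and 4.69 CPM, against 4.86 to 27.9 CPM. Its log2 fold change of -1.61 ± 0.489 only just passed (edgeR adjusted p = 0.0464), and leaving out 1 library ended the call in 11 of 18 cases.

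In the Chem7_Chem8 set, Rsub_04515 was at 54.6, 22.3 and 32.1 CPM, against 91.7 to 209 CPM in the other 15 libraries. This was a log2 fold change of -1.96 ± 0.189 (edgeR adjusted p = 5.31e-08). Rsub_00370 was at 110, 94.1 and 101 CPM, against 176 to 692 CPM, a log2 fold change of -2.09 ± 0.290. Replicate A was the lowest library of each of the other 5 sets for this gene, with 276, 356, 242, 176 and 202 CPM, and the gene differed between letters (edgeR adjusted p = 1.88e-07). In Chem7_Chem8 replicate A was the highest of the 3. Rsub_03919 was at 17.2, 17.2 and 18.5 CPM, against 2.59 to 16.4 CPM, a log2 fold change of 1.31 ± 0.310, which did not pass without replicate B or C of the set. Rsub_05106 was at 55.6, 89.0 and 43.7 CPM, against 16.9 to 43.0 CPM, a log2 fold change of 1.02 ± 0.199. Without replicate B, the highest of the 3, it was 0.68 and no longer passed.

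In the Chem9_Chem10 set, Rsub_03213, the gene with 3 counts in Chem3_Chem4, was the highest, at 32.7, 30.2 and 39.3 CPM, against 0 to 26.1 CPM in the other 15 libraries. Its log2 fold change was 2.31 ± 0.275 (edgeR adjusted p = 2.19e-07). Rsub_03004 was at 23.4, 25.9 and 23.7 CPM, against 2.02 to 19.3 CPM, a log2 fold change of 1.56 ± 0.297. For both genes the Chem11_Chem12 libraries were among the nearest, at 12.8, 26.1 and 25.7 CPM and at 18.6, 16.9 and 19.3 CPM. Rsub_06621 was at 6.42, 3.45 and 5.19 CPM, against 6.43 to 52.6 CPM, a log2 fold change of -2.15 ± 0.347. The nearest other library was in Chem11_Chem12. Rsub_11265 was at 30.4, 24.2 and 32.6 CPM, against 40.4 to 490 CPM, a log2 fold change of -1.99 ± 0.174. The Chem1_Chem2 libraries held its 3 highest values, at 354, 381 and 490 CPM.

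In the Chem11_Chem12 set, Rsub_07558 was at 42.2, 24.8 and 23.9 CPM, against 0 to 23.7 CPM in the other 15 libraries. Its log2 fold change was 2.52 ± 0.440 (edgeR adjusted p = 0.000103). The Chem9_Chem10 libraries, at 23.4, 23.3 and 23.7 CPM, lay just below it, and 9 of the 12 libraries of the remaining sets were under 4 CPM. Rsub_10202 was at 55.9, 82.1 and 86.4 CPM, against 7.79 to 52.7 CPM, a log2 fold change of 1.91 ± 0.182, again with Chem9_Chem10 next, at 45.0, 40.6 and 52.7 CPM. Rsub_12097 was at 9.80, 10.4 and 11.03 CPM, against 11.7 to 44.0 CPM, a log2 fold change of -1.59 ± 0.290. Rsub_08410 was at 5.88, 3.91 and 1.84 CPM, against 6.68 to 26.3 CPM, a log2 fold change of -1.71 ± 0.422. Without replicate C, the lowest, it was -1.34 and did not pass.

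**Figure D3:**
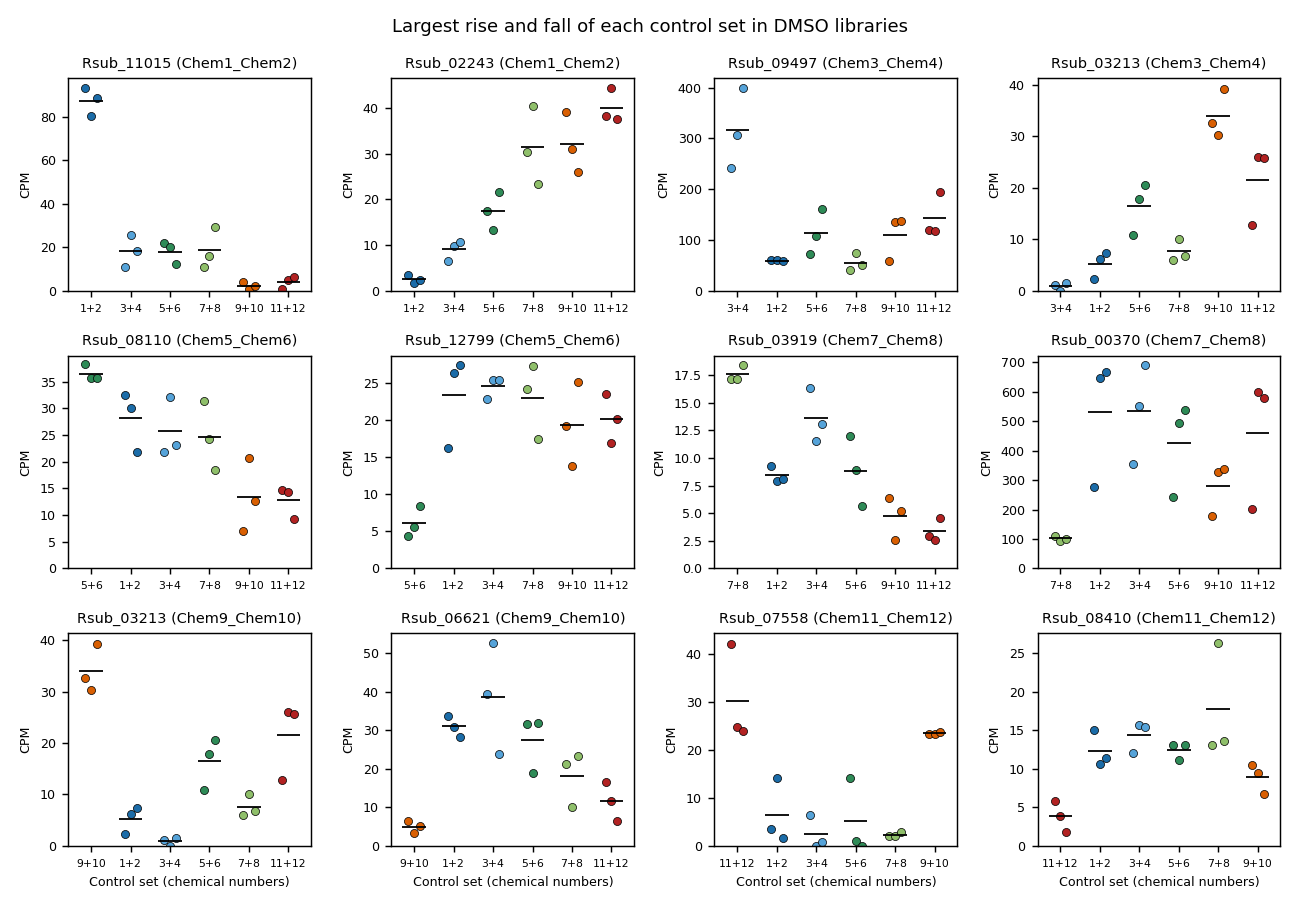
CPM of named genes in the 18 DMSO libraries, one point per library and a bar at each set's mean, on linear axes from 0, for the largest rise and the largest fall of each set. The named set comes first in each panel and the other 5 after it. In each panel the 3 libraries of the named set lie beyond all 15 others, which is how the genes were chosen.

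Far fewer genes passed for replicate letters than for sets, in tests over 2 and 5 degrees of freedom. With the set as a term, 233 of 9242 genes (2.52%) differed among A, B and C in the edgeR quasi-likelihood test. Of these, 18 exceeded 2-fold between the highest and the lowest letter, and the median range was 1.47-fold. Replicate B lay between A and C in 191 of the 233. Of the 233, 149 were also among the genes that differed over sets, against 35.3% of all genes tested. That share rises with the counts of a gene, and the overlap was not tested. The count was 142 without Chem1_Chem2 replicate A, 149 without Chem1_Chem2 replicate C, 148 without Chem5_Chem6 replicate A and 133 without Chem7_Chem8 replicate A. The labels do not say what a letter stands for.

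The chemically exposed (treated) libraries of each set offered a second look at the differences, in libraries that did not enter the DMSO contrasts. The same contrast, a set against the other 5, was fitted on the exposed libraries alone, in which a set also differs by its 2 chemicals and cannot be told apart from them. Exposed libraries of Chem9_Chem10 gave 6926 of 9982 genes (69.4%), Chem11_Chem12 6904 (69.2%), Chem1_Chem2 6858 (68.7%), Chem3_Chem4 6056 (60.7%), Chem7_Chem8 5085 (50.9%) and Chem5_Chem6 4908 (49.2%). Each exposed arm had 42 libraries, against 3 in a DMSO set, so these counts are not comparable in size with those of the DMSO sets.

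Genes called between DMSO sets nearly all lay in the same direction in the exposed libraries. Of the 1673 genes called for Chem9_Chem10, 1668 had the same sign there (99.7%), against 82.3% of all genes. The share was 99.6% for Chem11_Chem12, 98.8% for Chem3_Chem4, 98.3% for Chem7_Chem8, 97.5% for Chem1_Chem2 and 94.0% for Chem5_Chem6, where 68.1% to 80.6% of all genes did so. With the exposed libraries limited to level D7, the shares were 96.4% to 99.3%. Called in both and in the same direction were 1635 genes for Chem9_Chem10, 1487 for Chem11_Chem12, 1252 for Chem1_Chem2, 818 for Chem3_Chem4, 552 for Chem7_Chem8 and 428 for Chem5_Chem6. Called in both but in opposite directions were 1 to 5 genes for these sets, apart from 16 for Chem1_Chem2.

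Differences were larger in the DMSO libraries, on which the genes had been chosen. For genes called for Chem9_Chem10, the median absolute log2 fold change between DMSO sets was 0.62. In the exposed libraries the median was 0.47, with the DMSO direction taken as positive. Genes of opposite sign count as negative there and lower that median. For Chem5_Chem6, where the gap was widest, these medians were 0.56 in DMSO and 0.26 in exposed libraries. Of the 24 gene entries named above, 23 had the same sign in the exposed libraries and 22 passed there (edgeR, Benjamini-Hochberg). Rsub_11015 was the clearest, with a log2 fold change of 3.21 ± 0.231 in DMSO libraries and 3.02 ± 0.0575 in exposed libraries of Chem1_Chem2. Rsub_00801 had -1.61 in DMSO and -0.10 ± 0.102 in exposed libraries of Chem5_Chem6, where it did not pass (edgeR adjusted p = 0.418).

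The difference between the DMSO and the exposed contrast was tested directly in one fit of all 270 libraries. It passed for 145 of 9991 genes (1.45%) in Chem1_Chem2, with 85 higher in the DMSO contrast and 60 lower, and for 99 (0.991%) in Chem5_Chem6, with 57 higher and 42 lower. The counts were 15 (0.15%) in Chem3_Chem4, 7 (0.0701%) in Chem7_Chem8, 2 (0.02%) in Chem11_Chem12 and 1 (0.01%) in Chem9_Chem10. These counts also changed when single libraries of the set were left out. Without Chem1_Chem2 replicates B and C the 145 became 32 and 38, and without Chem5_Chem6 replicates A and B the 99 became 0 and 17. The 15 became 5 and 6 without Chem3_Chem4 replicates A and B, and the 7 became 1 and 0 without Chem7_Chem8 replicates A and C. The 1 became 3, 0 and 9 without Chem9_Chem10 replicates A, B and C, and the 2 became 1, 0 and 1 without those of Chem11_Chem12. The directions moved as well. Of the genes called for Chem1_Chem2, 58.6% were higher in the DMSO contrast, against 78.4%, 50% and 23.7% without replicates A, B and C of the set. For Chem5_Chem6 the share was 57.6%, against 76.5% and 48.4% without its replicates B and C. With level D7 as the only exposed level, no gene passed for any set in edgeR. Level D7 alone also leaves fewer exposed libraries to test with. Of 9991 genes, 813 in Chem5_Chem6, 731 in Chem1_Chem2 and 656 in Chem7_Chem8 were at an unadjusted edgeR p under 0.05 there. Chem11_Chem12 had 430, Chem3_Chem4 424 and Chem9_Chem10 319. With no difference at all, a share of about 0.05 would lie under that threshold. The D7 counts of Chem5_Chem6, Chem1_Chem2 and Chem7_Chem8 exceed that share. The lack of calls at D7 therefore does not show that DMSO and exposed contrasts were alike there. DESeq2 was not run on this contrast.

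Of the named genes, only Rsub_12799 passed this test. In Chem5_Chem6 its log2 fold change was -1.82 ± 0.327 in DMSO libraries and 0.06 ± 0.0685 in exposed libraries, a difference of -1.87 ± 0.350 (edgeR adjusted p = 0.000707). The call was lost without Chem5_Chem6 replicate A, at a difference of -1.68 (edgeR adjusted p = 0.0845), and with D7 alone, at -1.71 (edgeR adjusted p = 0.0702). In the other alternatives run the edgeR adjusted p was 0.000511 to 0.0219. The 3 DMSO libraries had 4.37 to 8.44 CPM, and the 42 exposed libraries of that set had 7.30 to 45.7 CPM with a median of 22.6.

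Placed on component 1 of the DMSO libraries, exposed libraries of Chem9_Chem10 and Chem11_Chem12 were again apart from those of the other 4 sets. DMSO libraries of Chem9_Chem10 had a median score of 29.5 and exposed ones 24.3, with 19.7 as the lowest of the 42. In Chem11_Chem12 the medians were 29.4 in DMSO and 25.8 in exposed libraries, with 19.0 as the lowest. All exposed libraries of these 2 sets thus scored above all those of the other sets, whose highest value was 5.50. Chem5_Chem6 differed most from its exposed libraries: its DMSO libraries scored -16.0 to -12.3, and the exposed ones had a median of -2.48, from -17.3 to 5.50. In Chem3_Chem4 the medians were -19.7 in DMSO and -13.3 in exposed libraries.

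**Figure D4:**
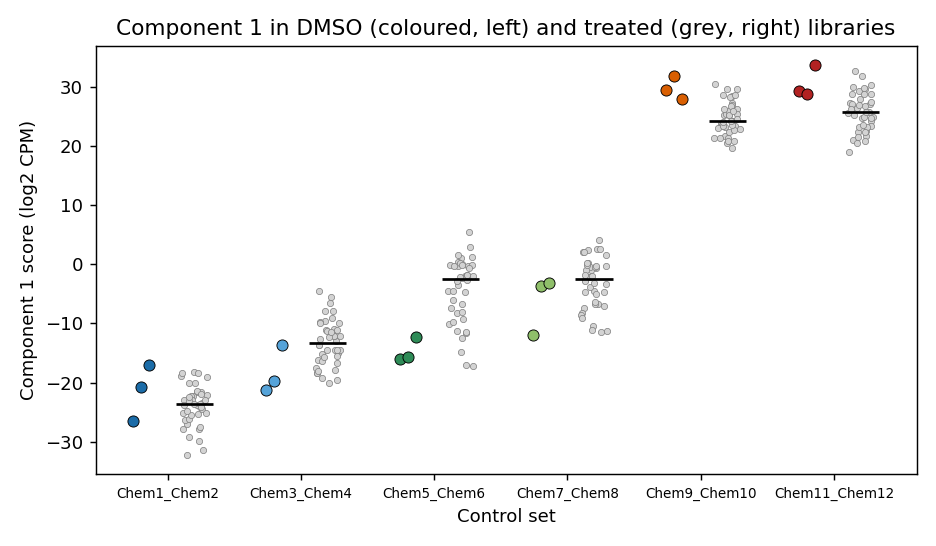
Component 1 score, in log2 CPM units, of DMSO libraries (coloured, 3 per set) and of exposed libraries projected on the same axis (grey, 42 per set, bar at the median). Both kinds of library in Chem9_Chem10 and Chem11_Chem12 score at least 19.0, and all others score at most 5.50.

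The number of genes with a count followed the same order of sets in exposed libraries. Thinned to 596651 counts, DMSO libraries of Chem5_Chem6 had a median of 10302 genes and exposed ones 10351, the lowest of the sets for both. Next was Chem7_Chem8, with 10373 in DMSO and 10423 in exposed libraries. DMSO libraries of Chem11_Chem12 had 10707 and exposed ones 10650, the highest of both. The share of counts in the 10 most abundant genes was also lowest in the exposed libraries of Chem11_Chem12 and Chem9_Chem10, with medians of 4.82% and 5.02%, against 5.83% to 6.16% in those of the other sets.

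Mean profiles of each chemical and level were last set beside the DMSO means. The group nearest to the DMSO mean of a set, among all 89 other groups, was an exposed group of the same set in every case. It was level D7 of the first-numbered chemical in 5 sets and level D4 of Chem11 in the other. In that set, Chem11_Chem12, the margin was slight. The distance was 0.278, against 0.279 for the nearest exposed group of another set and 0.284 for the Chem9_Chem10 DMSO mean. The distance from the own DMSO mean was lowest for Chem9 at D7, at 0.245, and highest for Chem4 at D1, at 0.626. For comparison, the DMSO means of Chem11_Chem12 and Chem9_Chem10 were 0.284 apart, and those of Chem11_Chem12 and Chem1_Chem2 0.622. Exposed groups closer to their own DMSO mean than the nearest other DMSO set numbered 13 of 14 in Chem1_Chem2 and Chem7_Chem8 and 12 in Chem3_Chem4. They numbered 7 in Chem5_Chem6 and Chem9_Chem10 and 3 in Chem11_Chem12.

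At each level, the second-numbered chemical of a set was farther from the shared DMSO mean than the first, in 42 of 42 pairs of chemicals at the same level name. Pairs of the same set share a DMSO mean and both chemicals, so they are not independent of one another. In Chem5_Chem6, for example, the 7 levels of Chem6 lay 0.405 to 0.462 from the DMSO mean and those of Chem5 0.322 to 0.379. In Chem9_Chem10 the levels of Chem10 lay 0.325 to 0.356 away and those of Chem9 0.245 to 0.279. The labels do not give the concentrations, so levels of the same name need not match between chemicals, and the source of this order was not tested.

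**Figure D5:**
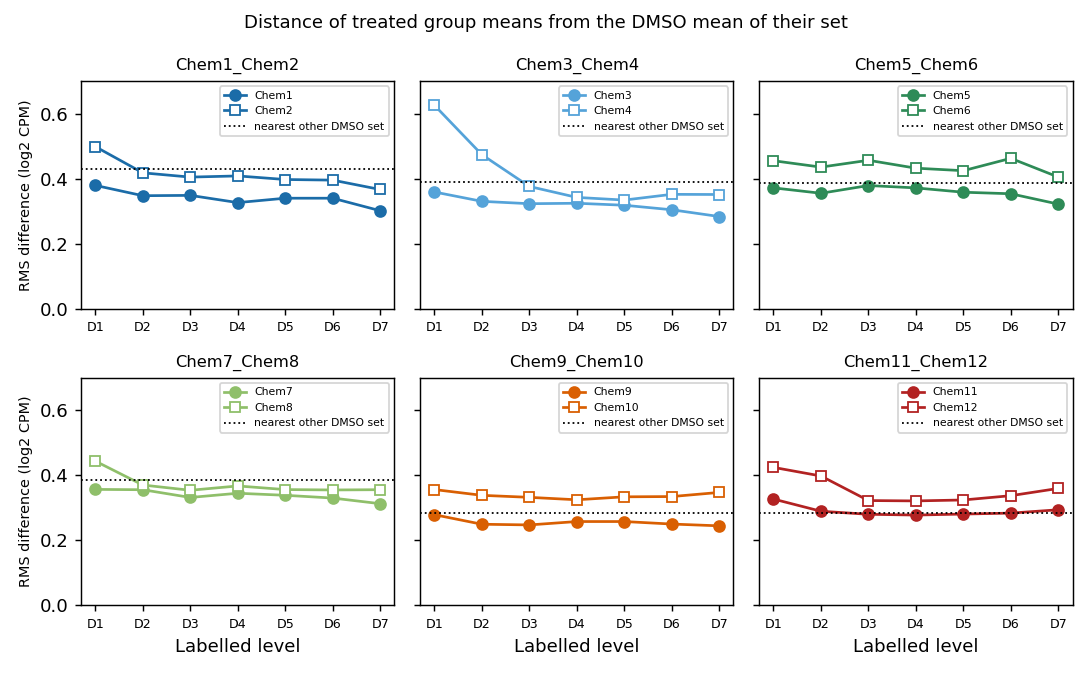
Root mean square difference of log2 CPM between the mean of each exposed group and the mean of its own DMSO set, by level name, with one line per chemical, one panel per set and a dotted line at the distance to the nearest other DMSO set. The second-numbered chemical lies above the first at all 7 levels in all 6 panels.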

How the data were processed

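The values used are raw counts per gene, deposited by the authors in one table per chemical with 24 columns each. Tools named in the submitters' processing notes are featureCounts 2.0.6, SAMtools 1.15.1, STAR 2.7.10a and fastp 0.23.2, with no order or role. Not given in the sources used here are the genome build, annotation, strand setting and any collapsing by molecular identifier. Counts may therefore include PCR copies, and overlapping or near-identical genes could share reads. The labels' protocols describe a 3′ kit, which makes counts nearly independent of transcript length. Copies of a DMSO column in 2 tables were identical, except for 1 gene that differed by 1 count in replicate C of 2 sets. No 2 libraries of a set agreed within sampling noise by a chi-square test of their counts over genes, where chi-square per degree of freedom was 2.07 to 6.60 within sets.

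Genes with enough counts (filterByExpr) were tested with edgeR 4.0.16 in R 4.3.3, by quasi-likelihood F-tests with trimmed mean of M-values scaling and Benjamini-Hochberg adjustment within each contrast. Standard errors are absolute log2 fold changes over the root of F. Log2 CPM used a prior count of 2. Named genes were, per set, the 2 highest and 2 lowest fold changes among called genes averaging at least 10 counts with no overlap, plus the 2 most abundant and the 2 with the largest F. DESeq2 1.42.0, other scalings and filters, a replicate block and leaving out libraries or sets were tried. The scripts were tested on simulated data. The members and lists were chosen with earlier results of these data known.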

Additional observations from a re-analysis of the deposited data

Results flagged for a closer look

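A set's difference from the other 5 differed between DMSO and exposed libraries, by the test of the difference itself in edgeR, for 145 genes in Chem1_Chem2 and 99 genes in Chem5_Chem6. The same test called 15 genes in Chem3_Chem4, 7 in Chem7_Chem8, 1 in Chem9_Chem10 and 2 in Chem11_Chem12. Of 9991 genes tested in edgeR, those at an unadjusted p under 0.05 numbered 1374 in Chem1_Chem2, 1281 in Chem5_Chem6 and 960 in Chem7_Chem8. They numbered 648 in Chem3_Chem4, 530 in Chem11_Chem12 and 509 in Chem9_Chem10. With no difference at all, a share of about 0.05 would lie under that threshold. The counts of Chem11_Chem12 and Chem9_Chem10 are near that share. Of the 145 genes, 49 were also called in the DMSO contrast of Chem1_Chem2, which called 14.5% of all genes tested. Of the 99, 54 were called in that of Chem5_Chem6, which called 5.38%. Both tests use the same DMSO libraries, so this overlap is partly built in. Among named genes, Rsub_12799 in Chem5_Chem6 differed by -1.87 on the log2 scale, being low in the 3 DMSO libraries and not in the exposed libraries of that set. That call was lost without Chem5_Chem6 replicate A and with D7 as the only exposed level.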

How the results depend on the processing

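Fold changes of the named genes kept their sign in the alternatives run. The count over all sets was 2872 to 3439 with 1 library left out, 2523 to 3100 with 1 set left out, and 3808 with the replicate block. The replicate letter was tried as a block, although the labels do not say what same-letter libraries share. Deviations of same-letter libraries from set means correlated at 0.015 to 0.239 for A, -0.044 to 0.038 for B and -0.043 to 0.208 for C. By mean correlation, 15 of 18 libraries were closest to their own letter. With the block, Rsub_02614 passed over the sets (edgeR adjusted p = 0.00132), Chem5_Chem6 had 766 genes and the difference in Chem7_Chem8 between DMSO and exposed libraries 14, and the pairs with 64, 124 and 510 calls had 219, 283 and 784. Without the filter on low counts these first 2 pairs had 198 and 219, the pair with none had 7, and letters had 376. DESeq2 called 1 and 118 genes in the pairs with 0 and 64. Chem5_Chem6 had 822 with all 270 libraries in the fit, and letters had 0 without the set as a term. With D7 alone, exposed contrasts gave 3276, 2503, 1207, 1683, 3295 and 3556 genes, in the order of the sets, and the differences from DMSO gave 0 in each. Fewer exposed libraries enter with D7 alone. Leaving out 1 library gave 826 to 1383 for Chem1_Chem2, 283 to 1122 for Chem3_Chem4, 122 to 655 for Chem5_Chem6, 156 to 674 for Chem7_Chem8, 1001 to 1875 for Chem9_Chem10 and 836 to 1660 for Chem11_Chem12. It gave 0 to 0, 878 to 1416 and 1838 to 2146 for the lowest, median and highest pair, and 133 to 315 for letters. The differences from exposed libraries gave 32 to 171, 5 to 13, 0 to 93, 0 to 8, 0 to 9 and 0 to 1 without 1 library of the set. The share of called genes that were higher was 47.8% to 57.7% for Chem9_Chem10 and 48.2% to 51.5% for Chem11_Chem12 over all settings. With D7 alone it was 61.2% for exposed Chem5_Chem6 and 52.6% for exposed Chem1_Chem2, against 49.8% and 48.2% with all levels. The causes were not tested. Of 690 values for named genes, 667 kept their side of the threshold.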
